A study of Mus musculus with 16 samples.

Results

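The long-term hematopoietic stem cell (LT-HSC) is the cell at the top of the blood lineage, and its microRNA (miR) profile was read here from 1 array, set against the 4 other arrays hybridized on the same slide. Those 4 held 1 population each, namely the short-term HSC (ST-HSC) and the myeloid progenitors: the common progenitor (CMP), the progenitor of granulocytes and monocytes (GMP) and that of megakaryocytes and erythroid cells (MEP). The LT-HSC array was 1 of 5 on its slide and 1 of 16 in the series. All cells were sorted from bone marrow of untreated female C57Bl/6 mice, several mice pooled per sample, with no transgene or deletion in any group. LT-HSC were gated as Lin-ckit+Sca1+CD34-FLT3- and ST-HSC as Lin-ckit+Sca1+CD34+FLT3-. The myeloid progenitors were Sca1- and were divided by CD34 and the Fc gamma receptor. They were sorted separately from the HSC subsets, so that for CMP, GMP and MEP the cell type and the sort cannot be told apart. There was no second LT-HSC array among those analysed, so that no test between populations could be made, and differences are given with the spread between probes and between replicate arrays of other populations.

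A miR is a short RNA that guides the silencing complex to messenger RNAs, chiefly through bases 2 to 8 of its 5′ end, the seed. In bone marrow several miRs mark lineages. miR-223 is a granulocyte and monocyte miR, miR-144 and miR-451 are processed from 1 erythroid transcript, and miRs of the miR-99, let-7 and miR-125 clusters as well as miR-10a, miR-126 and miR-130a are known from stem and early progenitor cells. miR-142 is found across blood cells.

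The sequences of the miRs on which the comparisons turned are given here so that members of 1 seed family can be recognized. The mature sequences are those of RefSeq (GRCm38.p6), 5′ to 3′, with the seed in capitals. Older array names were matched to the arm in common use. The first set was brighter on the LT-HSC array than on the arrays of 1 or more myeloid progenitors.
miR-125a-5p: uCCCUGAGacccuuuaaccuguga
miR-125b-5p: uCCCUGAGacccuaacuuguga
miR-99a: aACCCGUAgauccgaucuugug
let-7e: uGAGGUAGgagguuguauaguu
miR-10a: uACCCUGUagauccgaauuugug
miR-130a: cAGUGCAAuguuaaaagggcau
miR-146a: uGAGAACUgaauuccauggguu
The lineage miRs were those of the erythroid and the granulocyte-monocyte branch.
miR-144: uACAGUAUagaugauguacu
miR-451: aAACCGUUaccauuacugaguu
miR-223: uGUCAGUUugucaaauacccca
The last set was above (miR-22 and miR-690) or below (the others) ST-HSC, CMP and GMP on the LT-HSC array.
miR-22: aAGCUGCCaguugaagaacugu
miR-690: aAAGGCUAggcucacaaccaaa
miR-27a: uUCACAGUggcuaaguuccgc
miR-27b: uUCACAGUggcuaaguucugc
miR-340-5p: uUAUAAAGcaaugagacugauu
miR-301a: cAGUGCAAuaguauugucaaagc
miR-101b: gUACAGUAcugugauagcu
miR-20a*: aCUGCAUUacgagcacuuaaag

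miR-125a-5p and miR-125b-5p shared 1 seed, as did miR-27a and miR-27b, and miR-130a shared its seed with miR-301a. miR-451 (chr11:78073186-78073207) lay 139 bases downstream of miR-144 (chr11:78073047-78073066) by their first bases, and neither lay within another annotated gene. let-7e (chr17:17830366-17830387) and miR-125a-5p (chr17:17830817-17830840) lay 451 bases apart within the span of Spaca6. miR-223 (chrX:96242884-96242905) lay in the long noncoding RNA gene F630028O10Rik, miR-22 (chr11:75463772-75463793) in Mir22hg, miR-10a (chr11:96317186-96317208) in the span of Hoxb3 and miR-340-5p (chr11:50069720-50069741) in that of Rnf130. The gene table gave spans only, so exon and intron were not distinguished. Probes for miRs that differ by 1 or a few bases, such as let-7 members, miR-27a and miR-27b or miR-99a and miR-100, may read each other's RNA, and their values are uncertain to that extent.

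The LT-HSC array was the dimmest of the slide. Its probe signals summed to 34810 units, against 66237 (CMP) to 113362 (GMP) on the other 4. On it 142 miRs had a probe well above background, against 160 to 180 on the others. No miR was detected on the LT-HSC array alone, whereas 16 were detected on each of the other arrays and not on this one, among them miR-340-5p, miR-20a*, miR-98, miR-32, miR-33 and miR-326. For ST-HSC, CMP, GMP and MEP, 9, 1, 7 and 21 miRs were detected on that array alone. Those missing on that array alone numbered 0, 7, 1 and 4, and 116 miRs were detected on all 5. The lower number of detected miRs came with a lower summed signal, whose part in it was not tested. Of 577 miRs on the array, 224 had a probe well above background on at least 1 of the 5 arrays, and the values that follow are of these.

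Marker miRs were read first, to check the label. miR-142-3p, the pan-blood miR, ranked 3 by signal on the LT-HSC array and 2 or 3 on the others. Of 14 miRs of muscle, liver, brain and epithelium, none was detected on the LT-HSC array, and miR-124 on the CMP array was the only one detected on the slide. The stem-side miRs detected on LT-HSC were mostly within 2-fold of ST-HSC. Of the miR-99, miR-100, miR-125 and let-7e clusters 5 of 6 were detected on LT-HSC. Of miR-10 and miR-196 there were 2 of 4, and of miR-126 and miR-130a 2 of 3. On ST-HSC all of these were detected. However, the erythroid miR-451, miR-486 and miR-144 were all well above background as well, at levels second to MEP on the slide, as detailed below.

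The signal of the LT-HSC array was concentrated in a few probes. Rank and share are of raw signal within an array and do not compare the abundance of different miRs, since probes differ in how brightly they read. miR-720, which is annotated as a miR but derives from a transfer RNA, held 32.3% of the summed signal of the 224 miRs on the LT-HSC array and 6.11% to 13.3% on the other 4. Its raw signal was 7196 units on LT-HSC, 5759 on ST-HSC, 5679 on CMP, 9561 on GMP and 3257 on MEP. The signal of miR-720 on the LT-HSC array was thus within the range of the others, while the summed signal of the array was the lowest. Not every other miR was dimmer there, as the raw signals of miR-451 and miR-689 below show. The 10 brightest miRs held 63.6% of signal on LT-HSC, 51.7% on ST-HSC, 55.8% on CMP, 60.9% on GMP and 67.2% on MEP. Of the 20 brightest miRs of the LT-HSC array, 13 to 15 were among the 20 brightest of each other array.

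**Figure D1:**
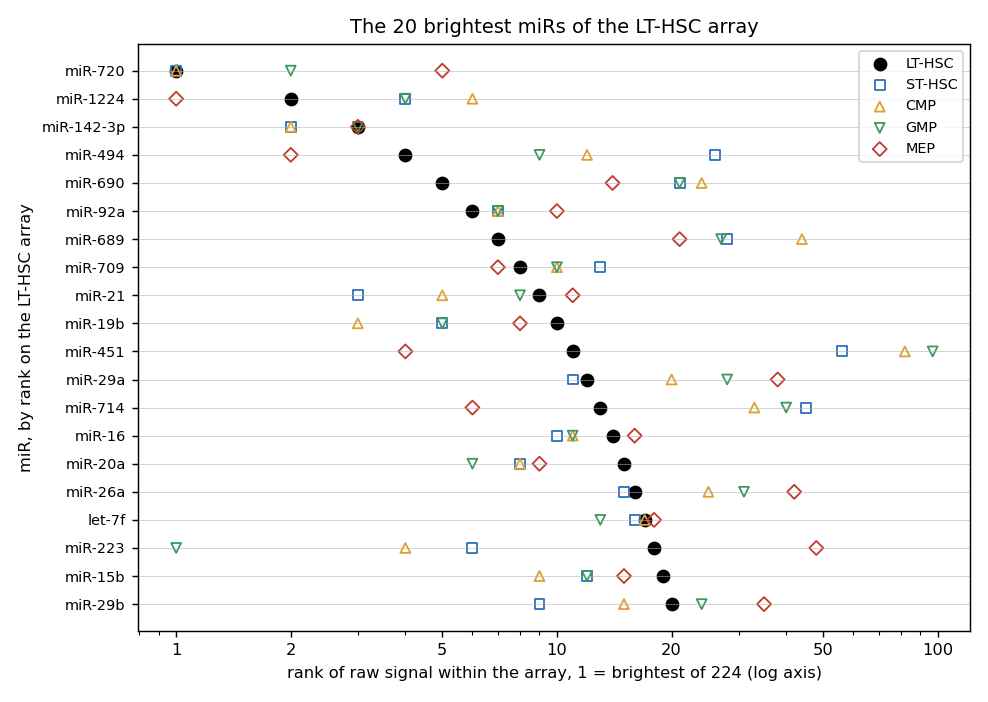
Rank of raw signal within each array (horizontal, log axis, 1 is the brightest of 224 miRs) for the 20 brightest miRs of the LT-HSC array (vertical), with 1 symbol per array. miR-451 ranked 11 on LT-HSC, 4 on MEP and 56 to 97 on the other arrays, and miR-223 ranked 18 on LT-HSC and 1 on GMP.

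Between arrays, miRs were compared on the log2 scale after quantile normalization of the 5 arrays. A miR was called higher or lower at a difference of 2-fold or more if its usable probes all pointed the same way. Where it was well above background on 1 array only, the difference is a bound, taken against the lowest signal detected on the other array. Against ST-HSC, 27 of 185 miRs were called higher on the LT-HSC array (14.6%) and 23 lower (12.4%). Against CMP, 32 of 176 were higher (18.2%) and 32 lower (18.2%), against GMP 33 of 189 were higher (17.5%) and 27 lower (14.3%), and against MEP 41 of 190 were higher (21.6%) and 27 lower (14.2%). Calls were also set against the standard deviation (SD) of a difference between replicate arrays of the same slide (6 degrees of freedom, median SD over miRs 0.24). All 50 calls against ST-HSC, 61 of 64 against CMP, 57 of 60 against GMP and 64 of 68 against MEP exceeded 2 SD. For miRs that lay at the floor on some of those replicate arrays the SD may be too low.

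Replicates gave 2 very different yardsticks for these counts. By the same rule, 7 pairs of arrays of 1 population on 1 slide gave 1 to 8 calls each (0.461% to 4.42%). Yet 8 pairs of arrays of 1 population on 2 slides, a comparison added after the data were seen, gave 21 to 72 calls (12.2% to 35.6%). The highest counts were those of ST-HSC, whose array on this slide differed from the other ST-HSC arrays by 72 and 67 calls, more than the 50 by which it differed from LT-HSC. When all 3 arrays of a population replaced the 1 array of the slide, 31 of 50 calls against ST-HSC remained, 54 of 64 against CMP, 56 of 60 against GMP and 51 of 68 against MEP. The 3 included the array of the slide, so that the calls kept are not independent of it. For the mean of 3 arrays, signals were quantile normalized over all 16 arrays. Slide and sample cannot be told apart in these pairs.

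**Figure D2:**
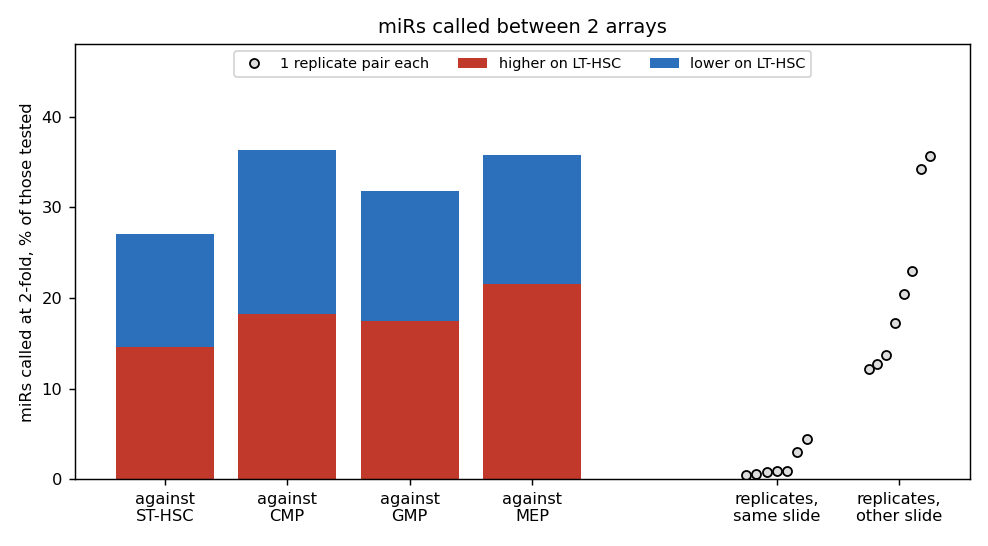
miRs called at 2-fold, as a percentage of those tested (vertical axis), in each comparison with the LT-HSC array (bars, by direction) and in pairs of replicate arrays of 1 population (points, 1 per pair). The bars stand above every pair of the same slide, and the highest pairs from different slides (35.6% and 34.2%, both of ST-HSC) are above the bar for ST-HSC.

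The balance of higher and lower calls depended on scaling. Scaled to the 75th percentile of the probes detected on all 5 arrays, 52 miRs were higher and 11 lower against ST-HSC, 56 and 15 against CMP, and 56 and 15 against GMP. Scaled to the 75th percentile of all probes, the splits became 15 and 57, 20 and 59, and 18 and 62. The first moved the median difference of all miRs detected on both arrays up by 0.30, 0.41 and 0.35 on the log2 scale in these comparisons, and the second by -0.66, -0.66 and -0.81. Against MEP the second moved it by -0.17. With no normalization the median moved by -1.26 against ST-HSC, -0.91 against CMP, -1.56 against GMP and -1.11 against MEP, and the splits were 2 and 94, 11 and 71, 7 and 103, and 14 and 82. The differences described first for each comparison are therefore those called the same way under all 12 alternatives of normalization, background, floor, detection, probe summary and comparator.

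**Figure D3:**
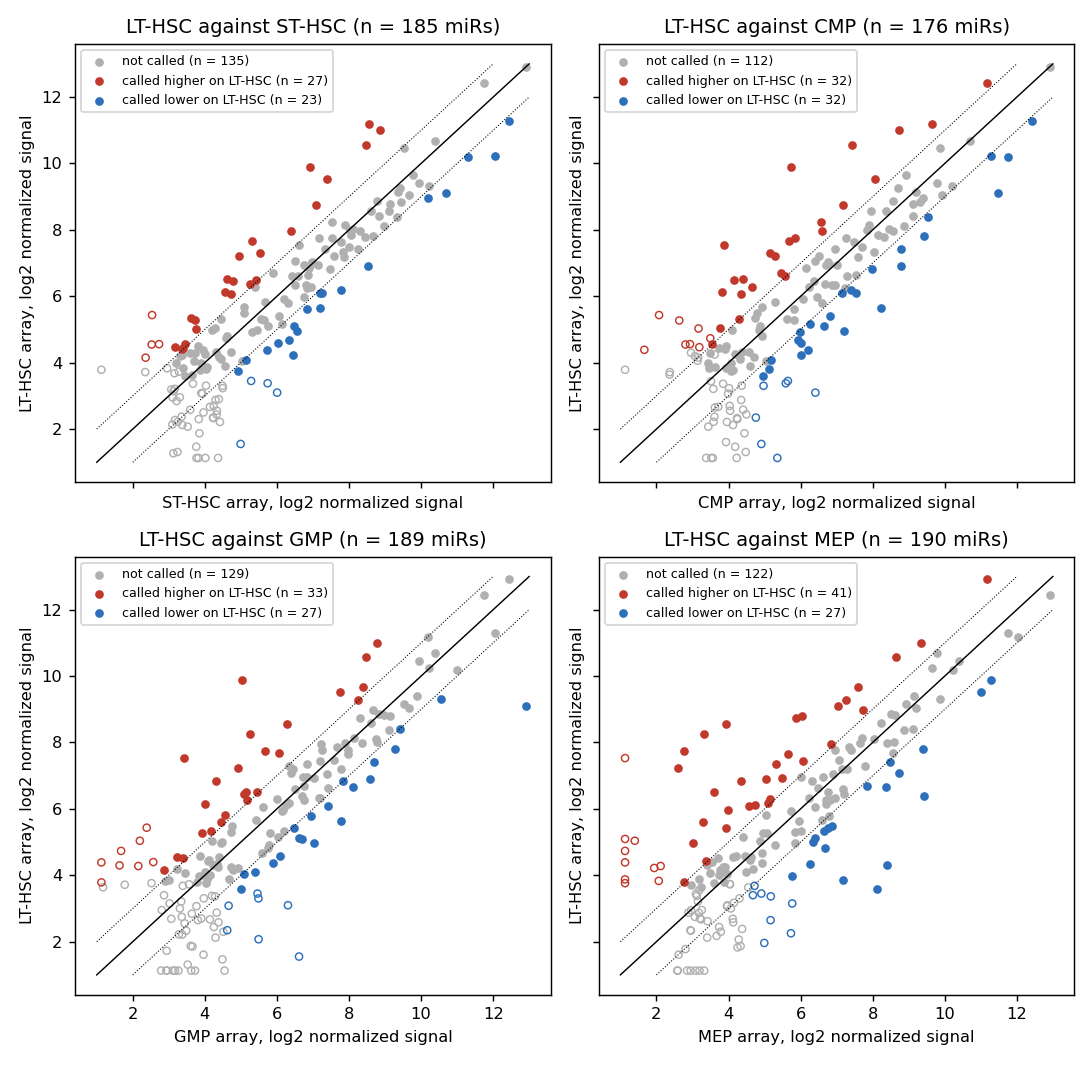
log2 normalized signal on the LT-HSC array (vertical) against each other array of the slide (horizontal), 1 point per miR tested. Filled points were well above background on both arrays and open ones on 1, and the dotted lines mark 2-fold. The called miRs lie on both sides of the diagonal in each panel, 27 above and 23 below against ST-HSC.

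Against ST-HSC, 3 of the 50 calls held under all 12 alternatives: miR-451 was higher, and miR-223 and miR-27a were lower. For miR-451 the raw signal was 310 on LT-HSC and 143 on ST-HSC, and the normalized log2 signal 9.88 and 6.91. The difference was 2.97 (7.85-fold), with 2 probes giving 2.64 and 2.97, although the replicate SD of this miR was large (1.24). miR-223 had a log2 signal of 9.11 against 10.69, a difference of -1.58 with a replicate SD of 0.27, and its 2 probes gave -1.58 and -1.57. miR-27a, which shares a cluster with miR-23a and miR-24, was at 6.91 against 8.52, a difference of -1.61 (replicate SD 0.29). All 3 kept their direction against the mean of the 3 ST-HSC arrays, at 3.71, -1.47 and -1.14.

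The other miRs that were lower on LT-HSC than on ST-HSC were spread over several families. miR-450a-5p (4.22 against 6.45), miR-21 (10.23 against 12.04), miR-27b (5.65 against 7.19), miR-301a (4.96 against 6.54), miR-322 (6.19 against 7.77) and miR-101a (4.68 against 6.33) differed by -2.23 to -1.54. Of these, miR-101a and miR-21 came to -0.61 and -0.78 against the mean of the 3 ST-HSC arrays, short of 2-fold. miR-340-5p was not well above background on LT-HSC and was at least 2.44 lower on the log2 scale (ST-HSC 6.01), as it was against the 3 arrays (at least 2.51). miR-33, an intronic miR of a sterol regulator gene, was lower by at least 2.18 on the slide and by at least 0.71 against the 3 arrays. miR-29b (-1.23) and miR-142-3p (-1.13) turned to 1.26 and 0.21 when the 3 arrays were used, so that their direction rested on the 1 ST-HSC array.

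Among those higher than on ST-HSC, miR-148a was at 8.74 against 7.07, a difference of 1.67 (replicate SD 0.20), and miR-486, an erythroid miR not well above background on ST-HSC, was higher by at least 2.36. Of the 27 higher miRs, 13 belonged to a list of 30 annotated miRs that are brightly read or doubtful as miRs, such as miR-494, miR-574-5p, miR-690, miR-689, miR-714 and miR-762, and none of the 23 lower ones did. All 30 passed background on the slide, where 224 of 577 miRs did, and all 30 were detected on MEP. The paper lists several of them, such as miR-574-5p, miR-714 and miR-762, as MEP miRs from the same data. The list is thus not independent of these arrays, and its counts and shares are no separate evidence. In this list 13 of 23 tested were higher and none lower. The median measured difference was 1.14, against -0.25 over all 185 tested, both with signals as measured and not as bounds. Against CMP 15 of 24 were higher and 1 lower, against GMP 9 of 25 higher and 1 lower, and against MEP 3 of 30 higher and 11 lower. The list held 58.4% of summed raw signal on LT-HSC and 53.1% on MEP, against 24.8%, 24.4% and 29.3% on ST-HSC, CMP and GMP. On LT-HSC most of that share was of 2 members, miR-720 (32.3%) and miR-1224 (13.7%). On MEP the brightest miR was miR-1224 (19.1%), and miR-720 ranked 5. The high shares on LT-HSC and MEP thus rested in part on different members. LT-HSC had the lowest summed signal of the slide, and that of MEP, 89579, was the second highest.

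**Figure D4:**
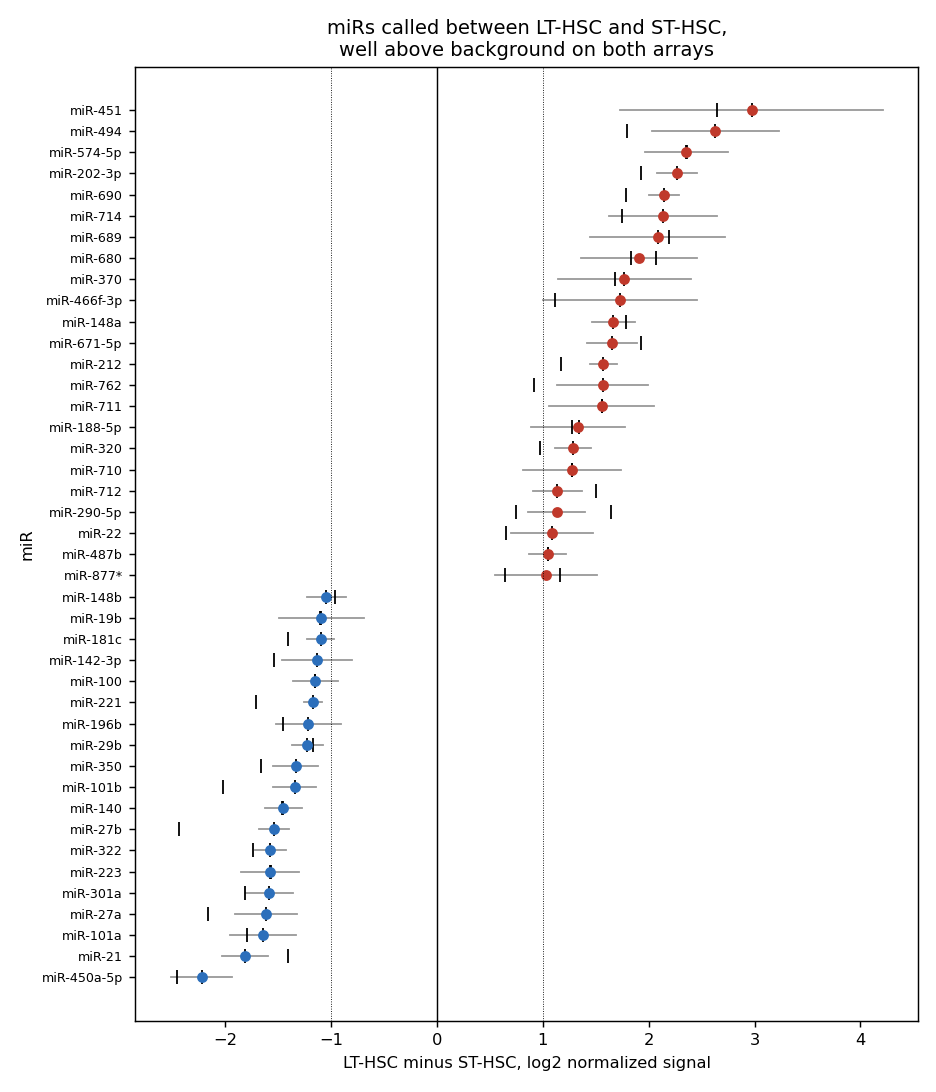
Difference of log2 normalized signal, LT-HSC minus ST-HSC (horizontal), for the 23 higher and 19 lower called miRs that were well above background on both arrays (vertical). Dots give the difference of the miR's brightest probe, grey lines 1 replicate SD to each side, ticks the lowest and highest probe, and dotted lines 2-fold. The differences run from -2.23 (miR-450a-5p) to 2.97 (miR-451).

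Most stem-side miRs were within 2-fold between LT-HSC and ST-HSC and were called higher on LT-HSC than on GMP and MEP, while fewer were called against CMP. miR-100 (-1.15) and miR-196b (-1.22) were called lower than on ST-HSC. miR-99b, miR-10b, miR-196a and miR-126-5p were well above background on ST-HSC and not on LT-HSC, and were not called between them. miR-125b-5p had log2 signals of 8.24 on LT-HSC, 7.54 on ST-HSC, 6.58 on CMP, 5.24 on GMP and 3.32 on MEP. The differences were 0.70, 1.67, 3.00 and 4.93 in that order, with a replicate SD of 0.29, and those against GMP and MEP held under all 12 alternatives. miR-99a was at 7.23, 7.58, 6.51, 4.91 and 2.60, and its 2 probes differed in sign against CMP (-0.09 and 0.71). miR-10a, which lies in the Hoxb cluster, was at 7.75, 7.17, 5.85, 5.67 and 2.77, and its difference to MEP was 4.97. Each of these miRs was lowest on MEP, and the 2 HSC arrays were within 2-fold of each other.

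miR-130a was at 8.56 on LT-HSC, 9.12 on ST-HSC, 7.96 on CMP, 6.29 on GMP and 3.93 on MEP, so ST-HSC was highest. miR-126-3p was at 6.85, 6.89, 6.16, 4.30 and 4.35, with the 2 HSC arrays equal within 1 replicate SD (0.28). Neither miR-130a nor miR-126-3p was called against CMP, with differences of 0.59 and 0.69. let-7e and miR-125a-5p, from the cluster that also holds miR-99b, were well above background on both HSC arrays only. They were at 4.73 and 4.39 on LT-HSC and at 4.59 and 3.96 on ST-HSC, and were higher than on CMP by at least 1.24 and 1.04. Of the 6 miRs of the miR-99, miR-100, miR-125 and let-7e clusters, none was higher and 1 (miR-100) was lower than on ST-HSC, whereas 3 of 5 tested were higher than on CMP, 4 of 5 than on GMP and 5 of 5 than on MEP. The median measured difference of the tested members to GMP was 3.00, against -0.18 over all 189 tested. Both medians take signals as measured, also where they were below background. As bounds, let-7e, miR-125a-5p and miR-100 were higher than on GMP by at least 1.95, 1.60 and 0.98. The other let-7 members were level: let-7a was at 8.87, 8.79, 8.58, 8.83 and 8.52, and of 8 members only miR-98 was called, lower than on CMP and GMP. The 5 miR-30 members were called in no comparison.

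miR-146a, a regulator of inflammatory signaling, also was highest on the HSC arrays. Its log2 signal was 7.53 on LT-HSC, 6.60 on ST-HSC, 3.88 on CMP and 3.41 on GMP, and it was not well above background on MEP. The difference was 0.93 to ST-HSC, 3.65 to CMP, 4.12 to GMP and at least 5.01 to MEP, with a replicate SD of 0.38, and the last 3 held under all 12 alternatives. Its paralog miR-146b, with the same seed, did not follow it. miR-146b was at 5.09, 5.76, 4.88 and 6.70 and not well above background on MEP, with a difference of -1.60 to GMP. The lymphoid miR-150 was at 5.04 on LT-HSC, 4.28 on ST-HSC and 3.76 on CMP, and was not well above background on GMP and MEP.

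**Figure D5:**
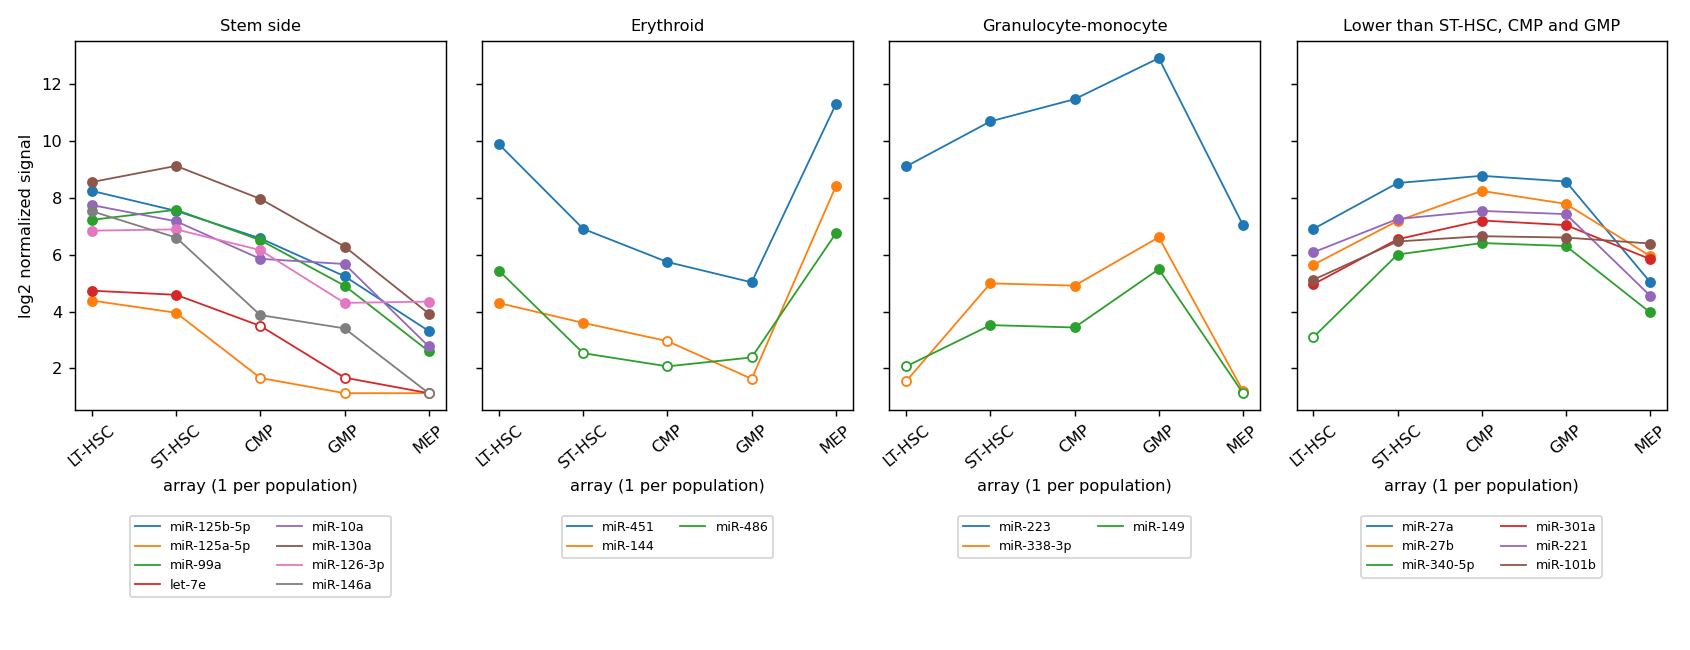
log2 normalized signal (vertical) on the 5 arrays of the slide (horizontal, 1 array per population) for stem-side miRs, erythroid miRs, granulocyte-monocyte miRs and 6 miRs called lower on LT-HSC than on ST-HSC, CMP and GMP. Open symbols were not well above background. miR-223 runs from 7.04 on MEP to 12.91 on GMP, and miR-451 from 5.03 on GMP to 11.29 on MEP.

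The erythroid miRs lay between MEP and the other arrays. miR-451 was at 9.88 on LT-HSC, 6.91 on ST-HSC, 5.74 on CMP, 5.03 on GMP and 11.29 on MEP. It was higher than on CMP by 4.14 and on GMP by 4.85, both under all 12 alternatives, and lower than on MEP by 1.41. miR-486 was well above background on LT-HSC (5.43) and MEP (6.75) only. miR-144 was at 4.30 on LT-HSC, 3.60 on ST-HSC and 8.41 on MEP, and the difference to MEP was -4.11, with a replicate SD of 0.08, under all 12 alternatives. The differences of miR-451 (-1.41) and miR-486 (-1.32) to MEP were both under 2 times their replicate SD (1.24 and 0.68), and that of miR-451 was -0.97 against the mean of the 3 MEP arrays. The part of other cells or of free RNA in the erythroid signal was not tested.

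Among the granulocyte-monocyte miRs, miR-223, miR-338-3p and miR-149 ran the other way, and miR-148a did not. miR-223 was at 9.11 on LT-HSC, 10.69 on ST-HSC, 11.47 on CMP, 12.91 on GMP and 7.04 on MEP, and was lower than on CMP by 2.36 and on GMP by 3.81 (14.0-fold), both under all 12 alternatives. Against MEP it was higher by 2.06, and by 0.80 against the mean of the 3 MEP arrays. On LT-HSC neither miR-338-3p nor miR-149 passed background. The paper lists both as GMP miRs from the same data, so that their values here are no separate evidence of lineage. On GMP they were at 6.61 and 5.49, so that LT-HSC was lower by at least 3.05 and 1.93. miR-148a, which the paper also lists as a GMP miR, was at 8.74 on LT-HSC and 8.31 on GMP. It was not called between them (0.43), and was higher than on CMP by 1.55 and on MEP by 2.85.

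miRs of the proliferation-linked miR-17-92 cluster were in part lower on the LT-HSC array. miR-19a was at 7.81 on LT-HSC, 8.66 on ST-HSC, 9.44 on CMP, 9.27 on GMP and 9.41 on MEP, and the last 3 differences (-1.62, -1.46 and -1.60, replicate SD 0.10) held under all 12 alternatives. miR-18a was lower than on MEP by 1.71 and than on GMP by 1.47. miR-92a, from the same transcript, was at 10.69, 10.38, 10.69, 10.38 and 9.77 and was called in no comparison. Of the 6 members none was higher in any comparison, and 1 was lower than on ST-HSC, 2 than on CMP, 3 than on GMP and 2 than on MEP, where 12.4%, 18.2%, 14.3% and 14.2% of all miRs tested were lower. The count against ST-HSC is near that share. The passenger strand miR-20a* was not well above background on LT-HSC and was at 4.91 to 5.65 on the others.

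The miR-23, miR-27 and miR-24 clusters differed in direction by lineage. miR-27a was at 6.91 on LT-HSC, 8.52 on ST-HSC, 8.78 on CMP, 8.58 on GMP and 5.04 on MEP. It was lower than on CMP by 1.87 and on GMP by 1.67 under all 12 alternatives, and higher than on MEP by 1.87. miR-27b was at 5.65, 7.19, 8.24, 7.79 and 5.95, and its difference was -2.60 to CMP and -2.14 to GMP, under all 12 alternatives, but only -0.31 to MEP. miR-23a was at 8.79 on LT-HSC, within 0.36 of ST-HSC, CMP and GMP, and higher than on MEP by 2.75. miR-221, from the pair that targets the Kit receptor, was at 6.08, 7.26, 7.54, 7.43 and 4.56. Of the 4 miR-181 members none was higher than on ST-HSC, CMP or GMP, 1, 3 and 1 were lower (12.4%, 18.2% and 14.3% of all tested), and 3 were higher than on MEP (21.6% of all tested). With 4 members, 1 call is about what the share over all miRs gives.

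Calls that held under all 12 alternatives numbered 10 of 64 against CMP, 7 of 60 against GMP and 14 of 68 against MEP. Against CMP and GMP they were the differences named above, with those of miR-142-3p (-1.13), miR-142-5p (-1.38), miR-19b (-1.55) and miR-689 (3.13) to CMP. Against MEP, miR-10a, miR-125b-5p, miR-130a, miR-146a, miR-99a, miR-148a, miR-23a and miR-720 were higher on LT-HSC, and miR-144, miR-18a, miR-19a, miR-712, miR-712* and miR-715 were lower. miR-712 was at 6.38 on LT-HSC, 5.24 on ST-HSC, 6.69 on CMP, 6.69 on GMP and 9.44 on MEP, and miR-712* was at 3.59, 3.45, 4.96, 4.99 and 8.12. Both arms were thus brightest on MEP. They belong to the list of doubtful miRs, since they lie in the spacer of ribosomal RNA genes.

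Few miRs stood apart from all 4 other arrays. Of 157 miRs tested in all 4 comparisons, 3 were called higher on LT-HSC than on each other array (1.91%) and 2 lower (1.27%). miR-690 was at 11.01 on LT-HSC and at 8.87, 8.74, 8.78 and 9.35 on ST-HSC, CMP, GMP and MEP, with a replicate SD of 0.14. Its raw signals were 514, 524, 438, 671 and 624, so that before normalization LT-HSC was above CMP but not above the other 3 arrays, and without normalization the differences to ST-HSC, GMP and MEP turned to -0.03, -0.38 and -0.28. miR-689, also a doubtful miR, was at 10.56, 8.48, 7.43, 8.48 and 8.66, and its raw signals were 468, 411, 170, 558 and 376. Without normalization its difference to GMP turned to -0.25. With scaling to all probes neither miR-690 nor miR-689 was above all 4 arrays. With scaling to the probes detected on each array of the slide miR-690 was not.

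miR-22, a conserved miR linked to HSC function, was at 6.50 on LT-HSC, 5.42 on ST-HSC, 4.14 on CMP, 5.14 on GMP and 3.61 on MEP. The differences were 1.09, 2.36, 1.36 and 2.90, with a replicate SD of 0.38, and against the mean of 3 arrays of each population 2.54, 2.24, 1.14 and 2.46. Without normalization those to ST-HSC and GMP turned to -0.26 and -0.22. Nor was miR-22 above all 4 with normexp, with the authors' values, with the mean of the probes or with scaling to all probes. miR-101b was lower on LT-HSC (5.12) than on ST-HSC (6.47), CMP (6.65), GMP (6.60) and MEP (6.39), and miR-20a* was lower by at least 1.35 in each comparison. Against the mean of 3 arrays the difference of miR-101b to ST-HSC was -0.84, short of 2-fold, and miR-20a* alone was still below all 4. Neither was below all 4 with normexp, with the authors' values or with scaling to the probes detected on all 5 arrays. Leaving out 1 of the other arrays in turn gave 14 such miRs (9 higher and 5 lower) without ST-HSC and 23 (11 higher and 12 lower) without MEP, in place of 5.

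Over the 116 miRs detected on all 5 arrays, the LT-HSC profile was closest to ST-HSC (Pearson r 0.88, Spearman rho 0.88) and farthest from MEP (0.75 and 0.72), with CMP (0.84 and 0.82) and GMP (0.84 and 0.83) between. These are correlations across miRs of 2 arrays each, and miRs are not independent replicates. ST-HSC and CMP were closer to each other (0.96) than either was to LT-HSC, and LT-HSC was closer to MEP (0.75) than ST-HSC was (0.60). The median size of a difference was 0.64 to ST-HSC and 0.30 between ST-HSC and CMP.

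Mature sequences were matched for 179 of the 224 miRs. Base composition was read only where at least 80% of a group was matched. The 23 miRs lower than on ST-HSC (21 matched) had a median GC content of 40.9% (quartiles 39.1% and 45.5%), and the 135 miRs called in neither direction (111 matched) 45.5% (40.9% and 54.5%). For the 27 higher miRs only 17 sequences were matched, so that the same reading was void for them. The 27 miRs lower than on GMP (22 matched) had a median of 41.5%, against 47.7% for those called in neither direction. The 41 miRs higher than on MEP (34 matched) also had a lower median than those called in neither direction, 45.5% against 50%. In no comparison were both directions matched at 80%, so that higher and lower calls could not be set side by side. No test was made of these differences.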

How the data were processed

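RNA of sorted bone marrow cells was labeled with Cy3 and hybridized to 1-color Agilent mouse miR arrays, 1 sample per array. The deposited spot intensities had been background-subtracted by Agilent Feature Extraction (version 10.2.1.3 for this slide), per the file headers, with no normalization between arrays. Version 9.5.3.1 also occurred in the series. A table of log2 values that the authors had quantile normalized in limma was used as an alternative only. Populations were taken from the sample titles, and the 5 arrays of 1 slide were compared. The members, lists and comparisons were chosen with earlier results of these data known.

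Control spots and spots marked as non-uniform or population outliers were left out, and the spots of a probe (5 to 20) were averaged. No spot was saturated. Detection of a probe on an array (well above background) needed the mark of Feature Extraction on a share of 0.5 or more of those spots, and the brightest such probe stood for its miR (1 to 4 probes). Signals were quantile normalized over the 5 arrays, floored and put on the log2 scale. The floor, 2.19 units or 1.13 in log2, came from the 672 negative controls per array, as the middle value of their 95th percentiles. The precision rests on the number of arrays, which was 1 per population on the slide. No p-value was computed. The SD of a difference was taken per miR from same-slide replicate arrays of the other 2 slides. Replicates on which a miR lay at the floor, or held the same rank, add no spread to it. The SD can thus be too low, and it was 0 for miR-720. The calling rule was tested on simulated data. Alternatives covered normalization, background (normexp with offset 50), floor, detection, probe summary, fold limit and comparator. miRs named were the list members, the 20 brightest on the LT-HSC array, up to 5 called per direction and comparison with the largest difference and up to 5 with the largest bound, and all called against each of the 4 arrays (at most 10 per direction). miR-148a and miR-326 were named after their values were seen. Python 3.11.15 with numpy 2.4.6, pandas 2.3.3 and scipy 1.17.1, and limma 3.58.1 in R 4.3.3, were used. Sequences and positions were those of RefSeq (GRCm38.p6), matched by name for 179 of 224 miRs. The authors' array annotation used another build, and no coordinate of it was used.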

Additional observations from a re-analysis of the deposited data

How the results depend on the processing

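No paired analysis was possible because each population compared has 1 array on the slide, so that the replicate numbers pair nothing. In place of 50, 64, 60 and 68 calls against ST-HSC, CMP, GMP and MEP, and of 5 miRs apart from all 4 arrays, normexp background correction gave 13, 19, 14, 23 and 2, a 4-fold limit 11, 16, 17, 23 and 0, and the authors' deposited values 33, 41, 34 and 3 (for MEP the count stayed within 1.5 times). A 1.5-fold limit gave 96, 100 and 103 calls against ST-HSC, CMP and GMP and 13 miRs apart from all 4. Detection by any spot gave 77 and 97 against ST-HSC and CMP and 11 apart from all 4. No normalization gave 96 against ST-HSC, 110 against GMP and 30 apart from all 4, all of them lower. The number apart from all 4 was 12 (11 higher) with scaling to the probes detected on all 5 arrays, 9 (all lower) with scaling to all probes, 11 with the mean of 3 arrays and 3 without the doubtful miRs, an alternative added after the data were seen. Leaving out 1 other array in turn gave 5 to 23. Against GMP the mean of 3 arrays gave 90 calls and the miRs detected on all 5 arrays 40, at 1.5 times the main count either way, and the other alternatives moved these counts by less. Over 197 differences of 90 named miRs, 25 of 2358 values under 12 alternatives changed sign, 18 of them with no normalization. Against ST-HSC these were -0.26 for miR-22, -0.0278 for miR-690 and -0.18 for miR-712 with no normalization, and 0.21 for miR-142-3p, 1.26 for miR-29b, -0.27 for miR-697 and -0.29 for miR-712 with the mean of 3 arrays. Scaling to all probes gave -0.16 for miR-494 (CMP), -0.27 for miR-26a (GMP) and -0.16 for miR-29a (GMP). No normalization gave, against CMP, -0.41 for miR-494 and -0.0484 for miR-714; against GMP, -0.0352 for miR-196b, -0.22 for miR-22, -1.03 for miR-26a, -0.91 for miR-29a, -0.43 for miR-483, -0.0050 for miR-574-5p, -0.25 for miR-689, -0.38 for miR-690 and -0.30 for miR-714; and against MEP, -0.0623 for miR-29b, -0.21 for miR-29c, -0.16 for miR-322 and -0.28 for miR-690. The cause was not tested. The low signal of the LT-HSC array limits what could be seen of dim miRs: the lowest signal detected on it was 11.8 normalized units, against 5.75 on MEP and 8.39 on ST-HSC.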

Other observations

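Of the 10 miRs of a mouse herpesvirus on the array, mghv-miR-M1-2 alone passed the background call of the LT-HSC array, with a raw signal of 15.1 units. It passed on the other 4 arrays of the slide too, at 14.2 on ST-HSC, 12.2 on CMP, 12.3 on GMP and 17.2 on MEP. On the log2 scale after normalization it was at 4.51 on LT-HSC, 3.81 on ST-HSC, 3.94 on CMP, 3.39 on GMP and 3.70 on MEP. It was 1 of the miRs counted as higher than on GMP (1.13), and that call was lost with no normalization, with normexp and with the authors' values. The source of the signal was not tested.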
